A study of Mus musculus with 2 samples.

Results

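Immediate early genes are transcribed within minutes of a signal, from transcription factors already present in the cell, and many of their mRNAs are degraded quickly. Serum, growth factors, calcium, stress and the handling of tissue are known to induce them through kinases such as JNK and p38. Several of their products, the Fos and Jun proteins and ATF3, pair through leucine zippers into AP-1 and related dimers, while others such as the phosphatase DUSP1 shut the signal down again.

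The 10 genes described here are Fos, Fosb, Jun, Junb, Jund, Egr1, Ier2, Atf3, Btg2 and Dusp1, of 43346 annotated genes in all. They were chosen by symbol, matched to the deposited gene and transcript tables through the gene identifier without its version, and all 10 were found, with 18 annotated transcripts. Gene coordinates below are those of GENCODE M21, while identifiers, counts and TPM are as deposited. The tissue was the facial prominences of B6NCrl mouse embryos at 11.5 days, dissected from healthy embryos of both sexes with no treatment or mutation named in the labels. There were 2 libraries of total RNA in 1 group, library 1 pooling 109 embryos and library 2 pooling 88. Input was 10 ng of RNA above 200 nt in size, with spike-in RNA added to both. No time between dissection and lysis and no undissected or stimulated control is given, so basal and induced transcripts cannot be told apart, and no test between conditions was possible.

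Library 1 held 30849058 expected counts and library 2 held 31600302. The defining markers of the labelled tissue were present, with all 6 facial mesenchyme genes and all 5 surface ectoderm genes at 1 TPM or more in both libraries. TPM is a level per length of transcript, scaled to a fixed total in each library, and is given as mean ± SD over the 2 libraries (n = 2).

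The 10 genes spanned a wide range of levels, from Ier2, at the level of an abundant mRNA, down to Fosb, which was at or near 0. At 1 TPM or more in both libraries, 8 of 10 were detected, against 32% of all genes and 58.5% of protein-coding genes. Fos and Fosb were the members that missed this threshold. The median over the 10 genes was 12.2 TPM, against 3.45 TPM over protein-coding genes. In order of mean level the genes stood as Ier2, Jund, Btg2, Jun, Dusp1, Junb, Egr1, Atf3, Fos and Fosb. Each gene's 2 values lay above both values of the next gene, except that Egr1 and Atf3 overlapped. The largest step within the detected genes separated Dusp1 from Junb, by 4.59-fold in mean TPM.

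**Figure D1:**
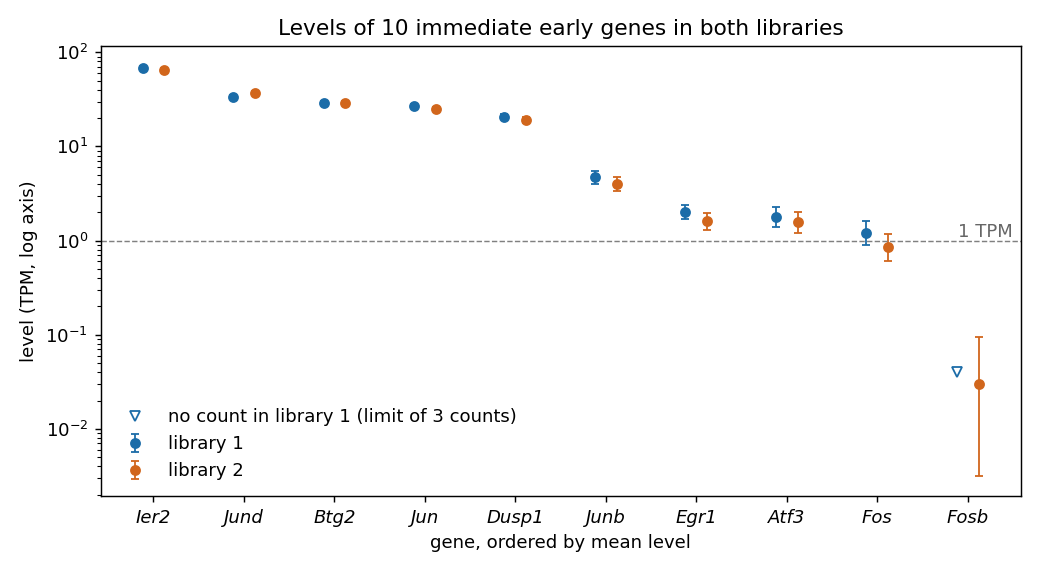
Level of each gene in library 1 (blue) and library 2 (orange) in TPM on a log axis, with 95% exact Poisson intervals of the counts, which cover counting error only; the dashed line is 1 TPM. Ier2 stands highest at 67.8 and 65.4 TPM, the 5 highest genes end with Dusp1 at 20.8 and 19.1 TPM, and the open triangle for Fosb is the limit of 3 counts, 0.0401 TPM, in library 1.

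Among the AP-1 subunits of this set, the Jun genes far exceeded Fos and Fosb. Jun, Junb and Jund together held 64.8 TPM in library 1 and 65.6 in library 2, and Fos and Fosb together 1.21 and 0.89. The ratio of the summed levels was 53.6 in library 1 and 73.7 in library 2. Fosl1 and Fosl2, further Fos family genes counted among the AP-1 partners below, are not in these sums, and adding them could lower this ratio. Jund is the family member known to be made in unstimulated cells. As deposited it took 53.8% ± 3.32 of the Jun family's TPM, Jun 39.5% ± 2.55 and Junb 6.67% ± 0.774. A higher level of Jund, as by the alternatives given below, would raise its share and lower those of Jun and Junb.

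Fos (ENSMUSG00000021250.9, chromosome 12, 85473890 to 85477273) encodes the prototype partner of Jun proteins. It had 50 counts and 1.21 TPM in library 1, and 36 counts and 0.86 TPM in library 2. The exact 95% Poisson intervals, 0.901 to 1.60 TPM and 0.601 to 1.19 TPM, overlap each other and include 1 TPM in both libraries. Fosb (ENSMUSG00000003545.2, chromosome 7, 19302696 to 19310051), its closest relative, had no count in library 1, which allows up to 0.0401 TPM at a limit of 3 counts, and 2 counts or 0.03 TPM in library 2. Fosb was therefore not detectable in library 1 at this depth, and no ratio between the libraries is given for it.

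Jun (ENSMUSG00000052684.4, chromosome 4, 95049034 to 95052222), the c-Jun subunit that JNK phosphorylates, had 1697 and 1596 expected counts, or 26.8 and 24.8 TPM. Junb (ENSMUSG00000052837.5, chromosome 8, 84974484 to 84978718) was lower, with 167 and 146 counts, or 4.68 and 4.02 TPM. Atf3 (ENSMUSG00000026628.9, chromosome 1, 191170296 to 191218039), a stress-induced bZIP factor, had 69 and 60 counts, or 1.79 and 1.57 TPM. Library 1 was the higher library for each of these 3 genes.

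Jund (ENSMUSG00000071076.5, chromosome 8, 70698949 to 70700616 in GENCODE M21) had 1900 and 2137 expected counts, or 33.4 and 36.9 TPM. That was the highest level among the Fos and Jun genes described here. Its level depends on its gene model and on an overlapping gene. The transcript the authors quantified is 2878 nt long, while that of GENCODE M21 is 1668 nt and starts 1210 bases later than the RefSeq start. If all counts fell in the shorter model, Jund would stand at 59.1 and 65.3 TPM. The antisense gene Gm11175 (chromosome 8, 70699162 to 70700080) lies within Jund, and was assigned 598 and 649 counts, 31.5% and 30.4% of the count of Jund. The posterior SD of the count was the same for Gm11175 and Jund, 17.95 counts in library 1 and 18.99 in library 2. With the counts of both genes on Jund the level would be 43.8 and 48.0 TPM, and on the shorter model 77.7 and 85.1. Strandedness was not given in the sources used here, and which gene these reads came from was not tested.

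Outside AP-1, Ier2 (ENSMUSG00000053560.4, chromosome 8, 84661331 to 84662852), a nuclear protein gene induced by growth factors, had the highest level of the 10, with 1977 and 1942 counts, or 67.8 and 65.4 TPM. It exceeded 89.7% of protein-coding genes in library 1 and 89.2% in library 2, and held 35.9% ± 0.393 of the summed TPM of the 10 genes. Ier2 and Junb lie on the same chromosome, 311.6 kb apart, yet the mean level of Junb was only 4.35 TPM. Egr1 (ENSMUSG00000038418.7, chromosome 18, 34859823 to 34864984), a zinc finger factor induced through serum response factor, was low, with 125 and 101 counts, or 2.02 and 1.61 TPM.

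The feedback genes were well expressed. Btg2 (ENSMUSG00000020423.6, chromosome 1, 134075170 to 134079120), an antiproliferative cofactor of mRNA deadenylation, had 1562 and 1616 counts, or 28.8 and 29.3 TPM. Dusp1 (ENSMUSG00000024190.6, chromosome 17, 26505590 to 26562128 in GENCODE M21), a phosphatase that inactivates p38 and JNK, had 785 and 717 counts, or 20.8 and 19.1 TPM. Of the 10 genes Btg2 differed least between the libraries, with a coefficient of variation of 1.14%, and among the detected genes Egr1 differed most, at 15.97%. Each coefficient rests on 2 values and includes counting error. That error is larger at the 125 and 101 counts of Egr1 than at those of Btg2, so this order partly reflects depth.

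To compare constitutive with inducible members, each level was divided by that of Jund in the same library. This grouping comes from general knowledge, with Jund alone on the constitutive side. Of the 9 inducible genes 8 stood below Jund and Ier2 above it. With the deposited model of Jund, Btg2 reached 82.9% ± 4.90 of the level of Jund, Jun 73.7% ± 9.29 and Dusp1 57.1% ± 7.43. Junb reached 12.5% ± 2.21, Egr1 5.21% ± 1.19, Atf3 4.81% ± 0.783 and Fos 2.98% ± 0.915. Of the 9 inducible genes, 4 thus stood at or above the share of Dusp1 and 5 at or below that of Junb, Fosb included. Ier2 stood at 1.90 ± 0.182 times Jund with the deposited model. That factor fell to 1.075 ± 0.103 with the shorter model of Jund, and to 0.821 ± 0.0735 with the antisense counts added as well. The order of Ier2 and Jund is therefore not settled by these data. In these settings the mean level of Jund was 62.2 and 81.4 TPM, against 35.1 as deposited. The shares of the other genes would be lower too.

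The ratio of library 2 to library 1 was taken from expected counts scaled by TMM, with an exact 95% interval by the Clopper-Pearson method, which covers counting error only. Each side is 1 library, so the ratios have no replicate check. Fosb was below the minimum of 50 counts and 1 TPM, which left 9 genes. A ratio was counted as past the fold when it lay more than 25% above 1, or below the inverse of that. Past the fold lay 1 of 9, against 14.8% of the 13739 genes measured in the same way, and none of 9 lay past 1.5-fold, against 4.58%. That gene was Fos, at a ratio of 0.721 (0.457 to 1.13), and its interval includes 1. Among genes with 50 to 400 counts, as Fos, Atf3, Egr1 and Junb have, 44% lay past the fold (26.3% toward library 1), and 27.4% lay as far from 1 as Fos.

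The direction was toward library 1 for most of the genes. Ratios below 1 were found for 7 of 9, against 48.4% of all genes measured, with a median of 0.915 against 1.01. Among all genes with 50 to 400 counts 54.6% were below 1. The other low genes were Egr1 at 0.809 (0.617 to 1.06), Atf3 at 0.871 (0.606 to 1.249) and Junb at 0.876 (0.697 to 1.10). Among the abundant genes, Dusp1 stood at 0.915 (0.826 to 1.01), Jun at 0.943 (0.879 to 1.01), Ier2 at 0.984 (0.924 to 1.05) and Btg2 at 1.04 (0.966 to 1.11). Jund was the highest at 1.13 (1.06 to 1.20), and was the 1 of 9 genes whose interval excluded 1, against 43.6% of all genes. As far from 1 as Jund lay 35.9% of all genes measured, and 26.2% of those with similar counts. With counts scaled to the spike-ins, Btg2 moved to 0.991 and 8 of 9 were below 1. edgeR's common dispersion, fitted over 15986 genes, gave a coefficient of variation of 9.79% between the pools. That value is the spread of single libraries, and a ratio between libraries spreads more widely. Jun, Ier2, Btg2 and Dusp1 lay within even this narrower distance of 1. The measured genes outside it, Jund included, are not thereby placed beyond the spread of a ratio.

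**Figure D2:**
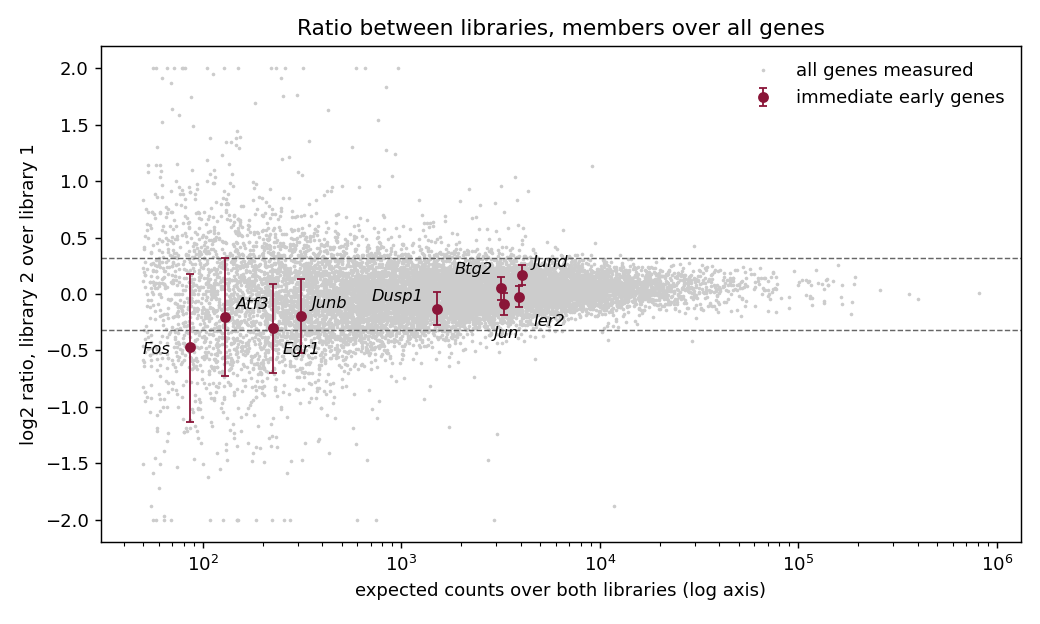
Log2 ratio of library 2 over library 1 against expected counts over both libraries (log axis) for the 9 measured genes (dark red, bars: exact 95% intervals of counting error) over the 13739 genes measured (grey, values beyond 2 drawn at 2). The dashed lines mark the fold of 25%; Fos alone lies past them, and its interval spans 0.

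Library 1 was also the higher library for markers of several cell types, whose part in these ratios was not tested. In bulk tissue, fewer cells of a type and less RNA per cell cannot be told apart. The summed level of 5 neuronal markers, all detected, was 498 TPM in library 1 and 422 in library 2, that of 6 endothelial markers, all detected, 182 and 157, and that of 5 ectoderm markers 216 and 187. The sum over 6 white blood cell markers, 5 of them detected, was 124 and 111, and over 5 erythroid markers 11168 and 10272. Ratios below 1 were found for all 5 neuronal, all 5 ectoderm and 5 of 6 endothelial markers. The same held for 5 of 6 white blood cell and 4 of 5 erythroid markers, against 48.4% of all genes measured. Lower past the fold were 1 endothelial marker, Egfl7 (56.7 and 41.2 TPM), and 1 ectoderm marker, Krt18 (58.3 and 44.5 TPM), against 8.8% of all genes. Both weigh heavily in their sums. Facial mesenchyme markers had a median ratio of 1.04, with 2 of 6 below 1, though they summed to 716 and 693 TPM. Skeletal muscle markers, all 5 detected, went the other way, from 103 to 168 TPM, with 4 of 5 higher past the fold, against 6.03% of all genes. No defining marker was at 0.

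Of 36 further immediate early genes, 28 were detected, against 32% of all genes and 58.5% of protein-coding genes. Their median was 3.94 TPM, below the 12.2 TPM of the 10 genes. The highest were the kinase gene Plk2 at 112 ± 2.23 TPM, the survival factor gene Mcl1 at 59.6 ± 3.28 and the stress response gene Gadd45g at 44.9 ± 2.77. Npas4, a factor induced by neuronal activity, had no count in either library. Of 29 measured genes in this list, 6 were lower in library 2 past the fold, against 8.8% of all genes, and 2 were higher, against 6.03%. Of these 6, Ccn2, named after its values were seen, was lower by counts (97.57 and 71.38) but higher by TPM (2.34 and 2.73). The median log2 ratio of the list was -0.10, against 0.01 over all genes, and 19 of 29 were below a ratio of 1. In the band of 50 to 400 counts 4 of 11 were lower past the fold, where 26.3% of all genes were, and 1 was higher. In either direction, 44% of all genes in that band lay past it. With 400 counts or more 3 of 18 passed it in either direction, where 7.2% of all genes did. Those 3 lay near the lower edge of that open band, and the 7.2% includes genes with far more counts. Chosen after their values were seen, the pair that was higher in library 2 were Plk3 (3.70 and 5.46 TPM) and Nfkbiz (2.23 and 2.91), and the lowest ratio was that of the nuclear receptor gene Nr4a2 at 0.686 (4.32 and 2.76 TPM).

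Of 12 other AP-1 and bZIP partners, 8 were detected, against 58.5% of protein-coding genes, at a median of 2.54 TPM. Atf4, the effector of the integrated stress response, led with 90.4 ± 2.1 TPM, ahead of Atf2 (59.4 ± 0.940) and the small Maf gene Mafg (13.0 ± 0.749). Batf, which pairs with Jun proteins in immune cells, was the member past 1.5-fold, with 47 counts in library 1 and 31 in library 2 and a ratio of 0.661 (0.406 to 1.06). It was the 1 of 8 measured genes past the fold, against 14.8% of all genes and 44% of those with 50 to 400 counts.

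The 19 kinases and transcription factors listed upstream were all detected, against 58.5% of protein-coding genes, and their median was 20.0 TPM. The kinase kinase genes Map2k2 and Map2k1 stood at 143 ± 1.73 and 58.0 ± 2.83 TPM. Past the fold lay 1 of 19 genes in each direction, against 8.8% of all genes toward library 1 and 6.03% toward library 2. The genes of AU-rich mRNA decay were likewise detected without exception, 11 of 11, with 55.4 TPM as their median, led by Hnrnpd (239 ± 12.5), the deadenylase gene Cnot7 (136 ± 12.7) and Zfp36l1 (112 ± 2.77). None of these 11 passed the fold, where 14.8% of all genes did.

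Heat shock and stress genes, which also respond to handling, were led by abundant chaperones. Of 14 listed genes 13 were detected, against 58.5% of protein-coding genes. Hspa8, the constitutive Hsc70, stood at 3123 ± 88.7 TPM, Hsp90aa1 at 889 ± 22.1 and the co-chaperone gene Dnaja1 at 505 ± 20.8. The median log2 ratio of the list was 0.14, with 5 of 13 genes below a ratio of 1. Those 5, named after their values were seen, were Hspb1 (log2 ratio -0.46), Dnajb1 (-0.15), Ddit4 (-0.14), the inducible Hsp70 gene Hspa1a (-0.10) and Ddit3 (-0.01). Past the fold lay 1 of 13 genes in each direction, against 8.8% of all genes toward library 1 and 6.03% toward library 2. Trib3, a target of ATF4, passed 1.5-fold, as 4.58% of all genes did, with 34 and 51 counts and a ratio of 1.503 (0.955 to 2.39). Among all genes with 50 to 400 counts, as Trib3 has, 44% lay past the fold.

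**Figure D3:**
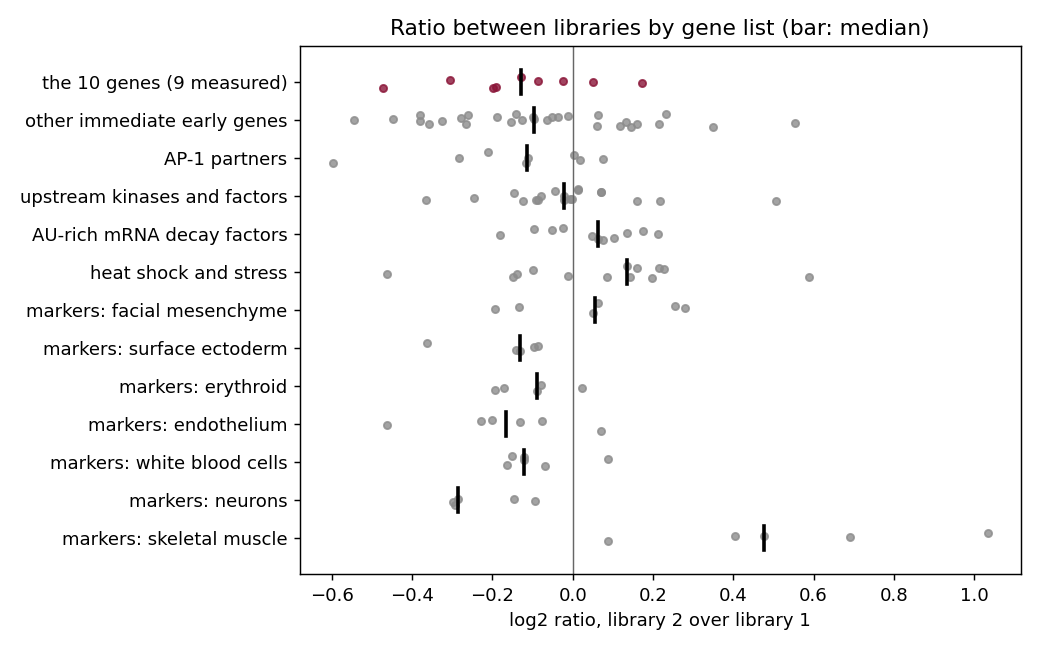
Log2 ratio of library 2 over library 1 for each measured gene (points) and the median (black bar) of the 10 genes, their companion lists and cell type markers. The median of the 9 measured immediate early genes is -0.13, that of the 29 further ones -0.10, that of heat shock and stress genes 0.14 and that of muscle markers 0.48.

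At the transcript level 6 of the 10 genes had 1 annotated transcript and 4 had several. Fos had all of its deposited TPM on Fos-201, the 4-exon coding mRNA, in both libraries, and none on 3 shorter processed transcripts. The posterior mean estimate gave Fos-201 69.0% and 61.9%, and placed between 0.55 and 1.72 counts on each of the short transcripts. Egr1 had 94.25% and 94.98% on Egr1-202, whose model is 1448 nt shorter than that of Egr1-201, and the posterior mean kept that order at 92.5% and 93.5%.

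Dusp1 had 88.6% and 85.8% of its TPM on the coding transcript Dusp1-202. The remainder lay on the retained-intron transcripts Dusp1-203 and Dusp1-204, together 11.4% in library 1 and 14.2% in library 2. Dusp1-204 held 5.84% and 9.41%, on 18.4 and 27.8 expected counts with a posterior SD of 3.18 and 3.47, and Dusp1-203 held 5.58% and 4.84%. The posterior SD of Dusp1-203, 13.8 counts in both libraries against 52.6 and 42.7 expected counts, makes its share uncertain.

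Atf3 was the 1 of 4 genes whose dominant transcript differed between the libraries, against 9.71% of the 9681 genes with several transcripts, and 20.2% of those with 50 to 400 counts. In library 1 the deposited share was 100% on Atf3-201, which starts nearer the coding region, and in library 2 it was 31.5% on Atf3-201 and 68.5% on Atf3-203, which starts further upstream. The posterior mean gave a smaller difference, 62.7% and 41.0% for Atf3-201 and 18.2% and 42.5% for Atf3-203. By that estimate the dominant transcript differed for 10.3% of all genes with several transcripts. The posterior SD of the count was 11.0 and 14.7 for Atf3-201 and 10.9 and 14.7 for Atf3-203, beside 69 and 60 counts for the whole gene. A difference in start site was therefore not detectable at this depth.

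**Figure D4:**
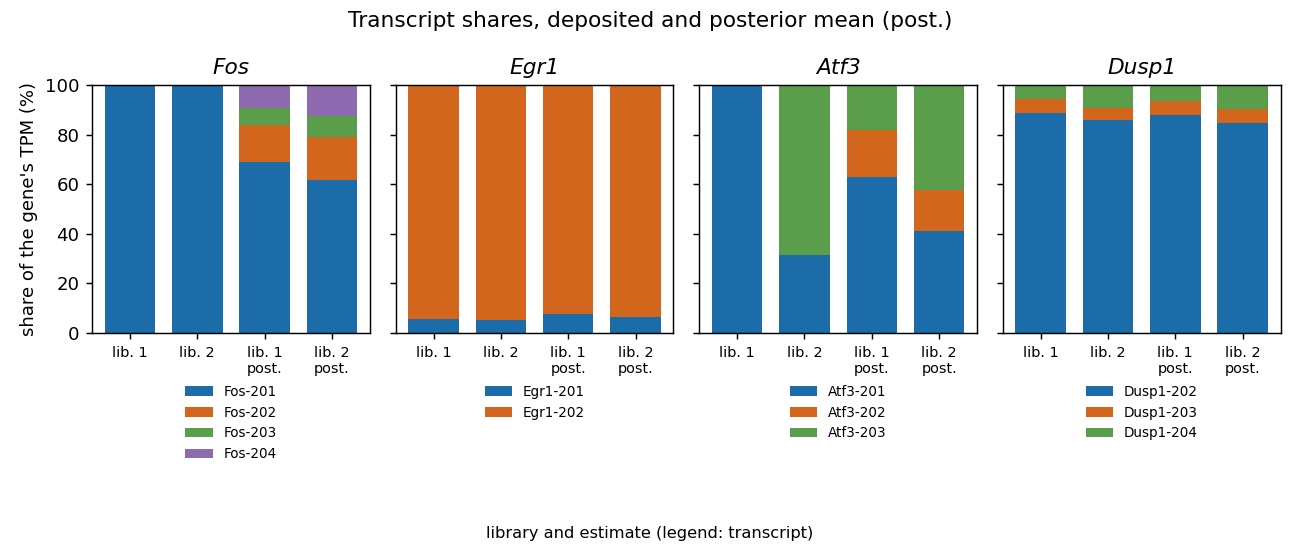
Share of each gene's TPM by transcript (stacked bars, %) for the 4 genes with several transcripts, as deposited for library 1 and library 2 and from the posterior mean (post.). Egr1-202 and Dusp1-202 hold most of their gene's TPM in each bar, while Atf3-201 goes from 100% to 31.5% as deposited and from 62.7% to 41.0% by the posterior mean.

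The coding transcripts of these genes have few exons, a trait that their choice by name did not use. In its most abundant coding transcript none of the 10 has more than 4 exons, where the median of 12547 detected protein-coding genes is 8. Jun, Junb, Jund and Ier2 each have a single exon, 4 of 10, where 2.88% of those genes do. Without an intron to remove, spliced and unspliced RNA of these 4 genes cannot be told apart.

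AU-rich elements, repeats of ATTTA in the 3′ UTR (searched on the transcript strand, also as the longer forms named here, each of which contains it), are known to mark short-lived mRNAs. They were searched in the most abundant coding transcript of each gene. ATTTA was found in 9 of 10, against 66.5% of 12197 detected protein-coding genes with a 3′ UTR, and TATTTAT in 7 of 10, against 28.2%. The density was a median of 2.40 per kb, against 1.28, and the median 3′ UTR lengths were similar, 1000 and 956 nt. Fos and Dusp1, at 1.04 and 19.9 TPM, were the pair with TTATTTATT, which 7.14% of all held, and Ier2, the most abundant, had no ATTTA. The richest site of each is shown, with ATTTA in capitals, on mm10.
Fos, chr12:85477102-85477131, plus strand: gtgttttcaATTTATTTAttaagatggatt
Dusp1, chr17:26506156-26506185, minus strand: gctggtccttATTTATTTAacacccccctc
Both sites read ATTTATTTA, so the same element was present in a gene near the detection limit and in a well expressed one.

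Promoter windows of RefSeq (GRCm38.p6, the assembly of mm10), from 250 bases before the start to 50 after it, were given for 8 of the 10 genes. Egr1 and Ier2 had none, so no motif was searched for them. Dusp1, Btg2 and Fos are shown because they held a CRE or a TATA box at very different levels. Capitals mark matches to the CRE (TGACGTCA), the TATA box (TATAAA), the EGR site (GCGNGGGCG), the AP-1 site (TGANTCA) and the CArG box of serum response factor, searched on both strands.
Dusp1, chr17:26508423-26508722, minus strand: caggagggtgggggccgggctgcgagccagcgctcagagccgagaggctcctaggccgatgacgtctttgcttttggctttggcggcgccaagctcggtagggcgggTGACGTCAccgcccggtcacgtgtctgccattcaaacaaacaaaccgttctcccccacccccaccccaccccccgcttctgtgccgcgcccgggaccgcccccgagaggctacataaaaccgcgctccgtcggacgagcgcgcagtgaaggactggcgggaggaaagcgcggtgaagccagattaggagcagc
Btg2, chr1:134079106-134079405, minus strand: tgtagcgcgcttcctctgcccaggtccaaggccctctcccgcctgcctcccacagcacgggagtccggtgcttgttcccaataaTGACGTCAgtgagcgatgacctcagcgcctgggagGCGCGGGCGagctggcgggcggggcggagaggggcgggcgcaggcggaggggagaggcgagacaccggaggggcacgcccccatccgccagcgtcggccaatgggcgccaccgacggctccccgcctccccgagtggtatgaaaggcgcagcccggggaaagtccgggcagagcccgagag
Fos, chr12:85473640-85473939, plus strand: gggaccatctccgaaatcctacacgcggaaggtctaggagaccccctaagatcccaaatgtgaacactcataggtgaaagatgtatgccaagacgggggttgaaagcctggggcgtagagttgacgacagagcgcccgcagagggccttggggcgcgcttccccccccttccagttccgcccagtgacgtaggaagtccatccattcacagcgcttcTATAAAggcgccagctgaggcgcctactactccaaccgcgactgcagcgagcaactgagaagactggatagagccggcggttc
The full CRE, the site of CREB and ATF factors, was found in Btg2, 166 bases before the start, and in Dusp1, 143 bases before it, 2 of 8 against 1.79% of 32851 windows. Its shorter core TGACG, which the full CRE contains, was found in 6 of 8, against 20.8%: Fos, Fosb, Junb, Atf3, Btg2 and Dusp1. TATAAA was found in Fos, 33 bases before the start, and in Junb, at the start itself, against 13.6% of windows. In the 250 bases before the start alone it was found in Fos only, 1 of 8, against 12.4%. The EGR site was found in Fosb and Btg2, against 5.55%. The GC box GGGCGG, which overlaps the EGR site in part and is not capitalised, was found in 6 of 8, against 35.7%. Neither the AP-1 site nor the CArG box was found in the 8 windows, against 7.81% and 1.63%, which says only that these letters are not in these windows. The window of Jund was taken at the RefSeq start, upstream of the start in GENCODE M21. Mean levels were 29.1 and 19.9 TPM for Btg2 and Dusp1, with the full CRE. They were 1.04 for Fos, 1.68 for Atf3, 4.35 for Junb and 0.015 for Fosb, with the core alone, and 25.8 for Jun and 35.1 for Jund, with neither.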

How the data were processed

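The 2 libraries form 1 group, so levels and ratios are described and no p-value was computed. Per the notes deposited with the files, genes were quantified against GENCODE M4 on mm10, and the column names are those of RSEM. The aligner, the versions and the strandedness are not given in the sources used here. Expected counts and TPM were estimated by the authors, TPM over all entries including spike-ins (15.4% and 15.8% of TPM). The isoform percentage, also deposited by the authors, is the percent of a gene's TPM on a transcript. Entries that are neither genes nor spike-ins held 2.917e-05% of counts in library 1 and 1.899e-05% in library 2.

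The members and lists were chosen with earlier results of these data known. Symbols, gene coordinates, exons and 3′ UTRs came from GENCODE M21, and 42462 of 43346 genes matched. For ratios, counts were scaled with edgeR's TMM method (edgeR 4.0.16, R 4.3.3) and rounded for intervals and for the dispersion. The ratios were tested on simulated data. The background comprised 13739 genes with at least 50 counts over both libraries and a mean of 1 TPM. Limits of 3 counts and 95% intervals cover counting error only, because amplified reads are not independent and the labels name no molecular identifiers. All 10 members were named, and from each companion list the 3 genes with the highest mean TPM and up to 4 measured genes past 1.5-fold; 1 such gene is not reported here. Count bands, 3′ UTR motifs, the core TGACG and the alternatives for Jund were added after the data were seen. Alternatives covered scaling, posterior means, thresholds and single libraries.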

Additional observations from a re-analysis of the deposited data

How the results depend on the processing

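Of values of single genes, transcripts or motifs, 26 moved beyond their spread or by over 1.5 times and 133 did not. The 133 include every value with 1 library left out. With 2 libraries such a value always lies within 1 SD of their mean, so it could not count as moved. By posterior mean TPM Fos rose from 1.04 to 1.44 and Atf3 from 1.68 to 1.99. Summary values follow. Over annotated mouse genes alone, without spike-ins, the median of the 10 genes rose from 12.2 to 14.4 TPM. At 5 TPM, 5 of the 10 genes and 15 of the 36 further immediate early genes were detected, in place of 8 and 28. At 0.5 TPM, with posterior mean TPM, or without spike-ins, 9 of the 10 were. The count past the fold of 25%, 1 with TMM, became 2 when scaled to total gene counts or to spike-ins, where Egr1 (0.79 and 0.774) joined Fos, and 2 with no filter on low counts, which admits the 2 counts of Fosb. It became 0 at 1.5-fold and 0 with 200 counts required, which leaves out Fos. The share of all genes past it was 42% with no filter. The core TGACG was found in 6 promoter windows and the full CRE in 2. Taking each library alone, the median level was 11.6 to 12.7 TPM, 8 to 9 genes were detected, and 8 of 9 stood below Jund in both. The median ratio ranged from 0.875 to 0.915 over the scalings. No paired analysis was possible because there is 1 group. At these depths a gene of about 100 counts carries an interval wider than 1.5-fold, which limits what can be said of Fos, Atf3 and Egr1.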
